A study of Danio rerio with 4 samples.

Results

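The 45 genes described here encode egg coat proteins, oocyte factors and germ line factors, and they were measured in zebrafish liver RNA on 4 two-colour Agilent arrays. They comprise the genes whose symbol in the annotation of the array begins with zp2, zp3, 42sp, zar1, btg4, bmp15, gdf9, dazl, ddx4, nanos, dnd1, sycp, cpeb1, figla, piwil or tdrd, or reads org. Symbols that begin with buc or nobox were also looked for and gave no gene. The 45 genes carry 81 of the 43603 probes and are part of 15554 genes with a symbol. The prefix ddx4 also takes in ddx42, ddx43, ddx46 and ddx49, which are other helicases, and these are described apart together with tdrd3, a Tudor domain gene that is active in many tissues.

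The cadmium group was 2 liver RNAs of zebrafish exposed to 5 µM cadmium and sampled at day 4 (replicates 1 and 2), and the control group was 2 liver RNAs at 0 µM cadmium and day 4 (replicates 2 and 3). The series asked how the liver transcriptome of cadmium-exposed fish differs from that of control fish, as a trial for a custom array. The dose unit comes from the design text of the series, since the sample labels put a temperature unit behind the same number. Strain, age, sex and the number of fish behind an RNA are not stated in the labels, so the p-values below measure the spread between these RNAs.

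The zebrafish egg is enclosed by a coat built from zona pellucida glycoproteins, which the growing oocyte secretes. In zebrafish the genes of this coat are mainly transcribed in the oocyte, whereas many other fishes also make coat proteins in the liver under estrogen. Growing oocytes further store messenger RNA under the control of RNA-binding proteins, keep germ plasm with factors such as Vasa and Dazl, and silence transposons with Piwi proteins and piRNAs. Egg coat transcripts are textbook markers of the ovary, whereas transcripts of germ line factors mark germ cells of either sex. Neither kind is a marker of hepatocytes.

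The arrays form a loop in which each RNA was hybridised on 2 arrays, in a different dye on each. Arrays 1 and 2 set cadmium replicate 1 against controls 2 and 3 in that order. Arrays 3 and 4 set cadmium replicate 2 against controls 3 and 2 in that order. Array values below are log2 ratios turned to cadmium over control. RNA-level values are the log2 values of the 4 RNAs relative to their mean, solved gene by gene from the 4 arrays together with a dye effect. No source states the direction of the deposited ratio. It was read here as red dye over green dye, the likely direction given limma's convention and the order of names in the titles. Under the opposite reading each sign below would turn, and the RNA named highest would be the lowest. The standard deviation over the 43603 probes was 0.198 and 0.230 on arrays 1 and 2 and 0.388 and 0.353 on arrays 3 and 4, so the arrays with cadmium replicate 2 had the wider spread.

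Most of these genes were highest in cadmium replicate 2 and lowest in cadmium replicate 1. Of the 45 genes, 41 had their highest RNA-level value in cadmium replicate 2, where 38.7% of all genes did, and 36 had their lowest in cadmium replicate 1, where 25.8% of all genes did. Both held for 34 of the 45 genes, compared with 17.7% of all genes. No gene of the 45 had its lowest value in cadmium replicate 2, as 29.4% of all genes had, or its highest in cadmium replicate 1, as 21.6% of all genes had. Over the 45 genes the RNA-level values had medians of -0.43 and 0.74 in cadmium replicates 1 and 2, against -0.26 and -0.13 in control replicates 2 and 3. Over all genes the same medians were -0.01, 0.01, -0.01 and -0.01. In 20 of the 45 genes cadmium replicate 2 lay at least 1 log2 unit above the next RNA, compared with 1.61% of all genes. In 25 genes it lay at least 1 log2 unit above cadmium replicate 1, compared with 3.57% of all genes. On the arrays, 29 of the 45 genes were below 0 for cadmium replicate 1 on arrays 1 and 2 and above 0 for cadmium replicate 2 on arrays 3 and 4, compared with 13.0% of all genes. The medians of the 2 cadmium RNAs thus stood on either side of those of both controls, and the groups overlapped in 44 of the 45 genes, as they did in 78.2% of all genes. A ratio from whole tissue does not tell more cells of a type from more RNA per cell.

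**Figure D1:**
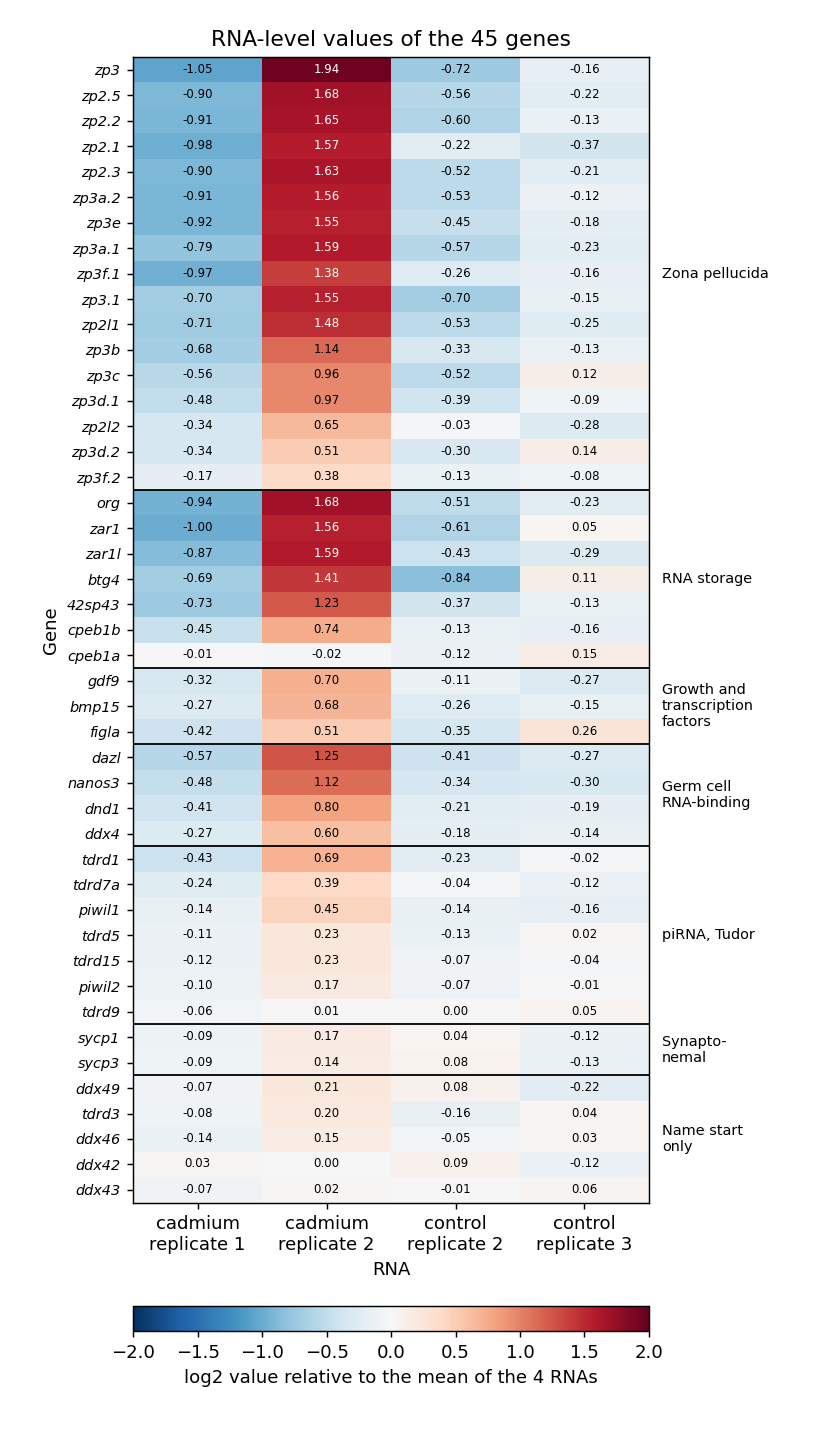
RNA-level values (log2, relative to the mean of the 4 RNAs) of the 45 genes in cadmium replicates 1 and 2 and control replicates 2 and 3, with genes grouped by role and sorted by their range over the RNAs. The column of cadmium replicate 2 is the highest in 41 rows, and that of cadmium replicate 1 the lowest in 36, with values between -1.05 and 1.94.

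The zona pellucida genes had the largest median range over the RNAs of the roles compared, 2.35 log2 units. All 17 were highest in cadmium replicate 2 and lowest in cadmium replicate 1, and in 13 of them cadmium replicate 2 lay at least 1 log2 unit above the next RNA. Their medians were -0.79 and 1.55 in cadmium replicates 1 and 2, against -0.52 and -0.16 in control replicates 2 and 3. On arrays 1 to 4 the medians were -0.20, -0.71, 1.77 and 1.81, so the arrays of the 2 cadmium RNAs pointed in opposite directions.

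The egg coat gene zp3 (Entrez Gene 30594) had the largest range of the 45 genes. Its array values were -0.25, -0.97, 2.18 and 2.58 on arrays 1 to 4. Its RNA-level values were -1.05 and 1.94 in cadmium replicates 1 and 2, against -0.72 and -0.16 in control replicates 2 and 3. Cadmium replicate 2 thus stood 2.99 log2 units above cadmium replicate 1, a 7.96-fold ratio, with both controls between them. The coat gene zp2.5 (Entrez Gene 30593) gave array values of -0.27, -0.76, 1.97 and 2.18 and RNA-level values of -0.90 and 1.68 in the cadmium RNAs, against -0.56 and -0.22 in the controls. For zp2.2 (Entrez Gene 114438) the arrays gave -0.25, -0.84, 1.84 and 2.19, and the RNA-level values were -0.91 and 1.65 in the cadmium RNAs, against -0.60 and -0.13 in the controls. In these 3 genes control replicate 3 lay above control replicate 2. The coat gene zp2.1 (Entrez Gene 664700) had the controls the other way round, with RNA-level values of -0.98 and 1.57 in the cadmium RNAs against -0.22 and -0.37 in the controls, and array values of -0.68, -0.69, 2.02 and 1.71.

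Among the other 13 zona pellucida genes the ratio of cadmium replicate 2 to cadmium replicate 1 ran from 0.56 log2 units in zp3f.2 to 2.53 in zp2.3. The copies zp3a.1, zp3a.2, zp3e, zp3f.1, zp3.1 and zp2l1 lay between 2.19 and 2.48, and zp3b, zp3c and zp3d.1 between 1.45 and 1.82. Smaller differences were found for zp2l2 (0.99) and zp3d.2 (0.85). The size of the difference thus varied within the family. The neighbouring copies zp3f.1 (2.35) and zp3f.2 (0.56) are an example, and the probes of zp3f.2 differed from each other, as given with the single probes. In the RefSeq gene table of assembly GRCz12tu, which held the gene IDs of 44 of the 45 genes, 5 pairs of zona pellucida genes stand next to each other. These are zp3d.2 with zp3d.1, zp3f.1 with zp3f.2, zp3a.2 with zp3a.1, zp2.2 with zp2.3 and zp2.1 with zp2.5. A sixth adjacent pair joins zp3e to the helicase gene ddx42, which stood at 2.47 and -0.03 log2 units for cadmium replicate 2 minus cadmium replicate 1. Probe sequences were not used here, so how far probes of near-identical copies share target RNA was not tested.

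**Figure D2:**
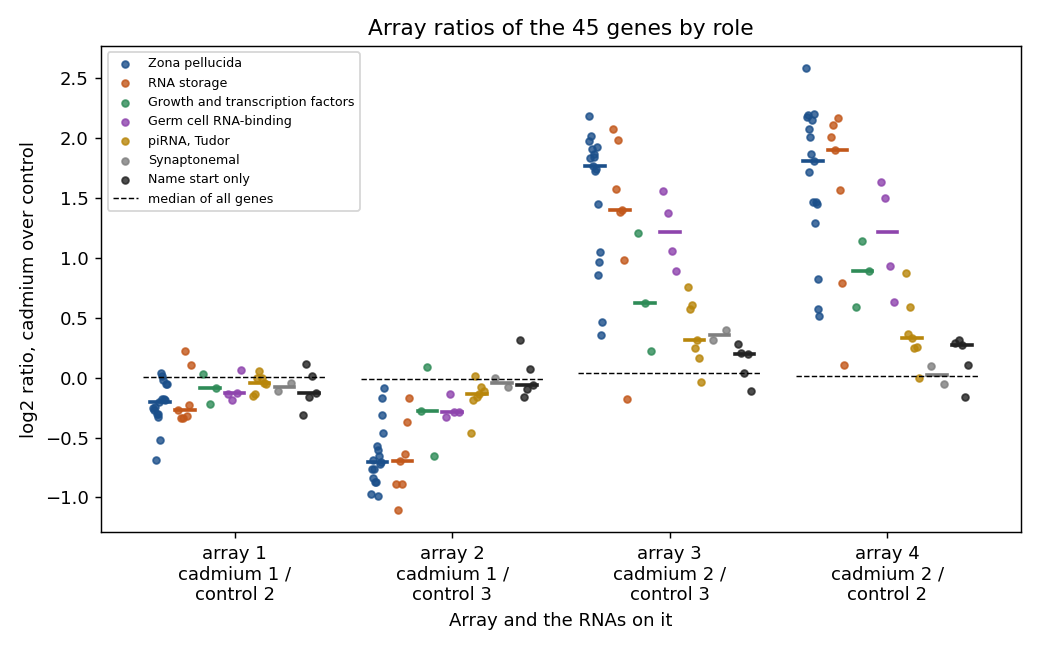
Log2 ratios of cadmium over control on arrays 1 to 4 for the 45 genes, as 1 point per gene with colours for the roles, a bar for the median of each role and a dashed line for the median of all genes. Zona pellucida medians lie at -0.20 and -0.71 on the arrays of cadmium replicate 1 and at 1.77 and 1.81 on those of cadmium replicate 2.

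Genes of RNA storage and translation in the oocyte followed the coat genes closely. Of 7 such genes 6 were highest in cadmium replicate 2, and 5 were lowest in cadmium replicate 1. The oogenesis-related gene org (Entrez Gene 100001110) had array values of -0.27, -0.89, 2.08 and 2.01. Its RNA-level values were -0.94 and 1.68 in cadmium replicates 1 and 2, against -0.51 and -0.23 in control replicates 2 and 3, so cadmium replicate 2 stood 6.15-fold above cadmium replicate 1. The gene zar1 (Entrez Gene 369189), which encodes an RNA-binding protein of the oocyte, had RNA-level values of -0.999 and 1.56 in the cadmium RNAs against -0.61 and 0.05 in the controls, and array values of -0.33, -1.105, 1.57 and 2.11. Its relative zar1l (Entrez Gene 561189) had -0.87 and 1.59 in the cadmium RNAs against -0.43 and -0.29 in the controls, with -0.34, -0.70, 1.98 and 1.90 on the arrays. In these 3 genes cadmium replicate 1 lay below both controls.

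The gene btg4 (Entrez Gene 378946), whose product in mouse directs the removal of maternal messenger RNA, broke that order at its lower end. It had RNA-level values of -0.69 and 1.41 in the cadmium RNAs against -0.84 and 0.11 in the controls, so control replicate 2 was lowest. Its arrays gave 0.22, -0.89, 1.38 and 2.17. Of the remaining genes, 42sp43, a relative of a Xenopus protein that binds RNA stored in the oocyte, stood 1.96 log2 units higher in cadmium replicate 2 than in cadmium replicate 1, and cpeb1b, of the cytoplasmic polyadenylation machinery, 1.19. The single probe of its paralogue cpeb1a did not share this pattern, with RNA-level values of -0.01 and -0.02 in the cadmium RNAs against -0.12 and 0.15 in the controls. Ratios give no level, so whether cpeb1a RNA was detected was not tested.

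The oocyte growth factors and the transcription factor in the set had smaller differences. For gdf9 (Entrez Gene 497643), a growth factor that the oocyte sends to its follicle, the array values were 0.03, -0.28, 1.21 and 0.59. The RNA-level values of gdf9 were -0.32 and 0.70 in the cadmium RNAs, against -0.11 and -0.27 in the controls. Its partner bmp15 (Entrez Gene 334183) had -0.27 and 0.68 in the cadmium RNAs against -0.26 and -0.15 in the controls, and -0.22, 0.09, 0.62 and 1.14 on the arrays. For both factors cadmium replicate 2 stood above the other 3 RNAs, which lay below 0, by 0.82 log2 units for gdf9 and 0.83 for bmp15. The gene figla (Entrez Gene 387259), a transcription factor that turns on zona pellucida genes in mouse oocytes, had -0.42 and 0.51 in the cadmium RNAs against -0.35 and 0.26 in the controls. On its arrays it gave -0.09, -0.65, 0.22 and 0.89, and control replicate 3 came within 0.25 log2 units of cadmium replicate 2.

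Germ cell RNA-binding genes were highest in cadmium replicate 2 and lowest in cadmium replicate 1 in 4 of 4 cases, with the controls close together. The germ cell gene dazl (Entrez Gene 58039), a translational activator, had array values of -0.13, -0.33, 1.56 and 1.63. Its RNA-level values were -0.57 and 1.25 in cadmium replicates 1 and 2, against -0.41 and -0.27 in control replicates 2 and 3. For nanos3 (Entrez Gene 140631), which maintains primordial germ cells, they were -0.48 and 1.12 in the cadmium RNAs against -0.34 and -0.30 in the controls, and the arrays gave -0.18, -0.13, 1.38 and 1.502. The high RNA was the same for both genes. The gene dnd1 (Entrez Gene 373074), which shields germ cell transcripts from microRNAs, had -0.41 and 0.80 in the cadmium RNAs against -0.21 and -0.19 in the controls, with -0.13, -0.29, 1.06 and 0.93 on the arrays. For the Vasa gene ddx4 (Entrez Gene 30263), the classical germ line helicase, the values were -0.27 and 0.60 in the cadmium RNAs against -0.18 and -0.14 in the controls, and 0.07, -0.29, 0.89 and 0.63 on the arrays.

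The 7 genes of the piRNA pathway and of Tudor proteins had a median of 0.35 log2 units for cadmium replicate 2 minus cadmium replicate 1, against 2.35 for the zona pellucida genes and 0.02 for all genes. Of the 7, 6 were highest in cadmium replicate 2. The scaffold gene tdrd1 (Entrez Gene 553522) led with RNA-level values of -0.43 and 0.69 in the cadmium RNAs against -0.23 and -0.02 in the controls, and array values of -0.15, -0.46, 0.76 and 0.87. Values of tdrd7a (Entrez Gene 406379), a germ granule gene, were -0.24 and 0.39 in the cadmium RNAs against -0.04 and -0.12 in the controls, with -0.14, -0.19, 0.57 and 0.37 on the arrays. The Piwi gene piwil1 (Entrez Gene 368200) had -0.14 and 0.45 in the cadmium RNAs against -0.14 and -0.16 in the controls. It was the 1 gene of the 45 with both cadmium RNAs above both controls, a pattern that 11.7% of all genes had, while 0 of the 45 had both below, as 10.2% of all genes had. For piwil1 cadmium replicate 1 exceeded the nearer control by less than the rounding of these values. For tdrd5 (Entrez Gene 557999) the values were -0.11 and 0.23 in the cadmium RNAs against -0.13 and 0.02 in the controls. On arrays 1 to 4 piwil1 gave -0.00, 0.02, 0.60 and 0.59, and tdrd5 gave 0.06, -0.16, 0.25 and 0.33. The second Piwi gene piwil2 and tdrd15 stood at 0.27 and 0.35 log2 units for cadmium replicate 2 minus cadmium replicate 1. The gene tdrd9, with 1 probe, stood at 0.06, and whether it was detected was not tested.

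The synaptonemal complex genes, which pair chromosomes in meiosis, stood close to 0. Whether their RNA was detected was not tested, since ratios give no level. RNA-level values of sycp1 (Entrez Gene 402797) were -0.09 and 0.17 in the cadmium RNAs against 0.04 and -0.12 in the controls, and its arrays gave -0.11, -0.00, 0.31 and 0.10. Those of sycp3 (Entrez Gene 678602) were -0.09 and 0.14 in the cadmium RNAs against 0.08 and -0.13 in the controls, with -0.04, -0.08, 0.40 and -0.05 on the arrays. The 5 genes that match by the start of their names had a median range of 0.28 over the RNAs, near the 0.25 of all genes. The ribosome biogenesis helicase gene ddx49 (Entrez Gene 386632) had -0.07 and 0.21 in the cadmium RNAs against 0.08 and -0.22 in the controls, and -0.31, 0.31, 0.28 and 0.29 on the arrays. For tdrd3 (Entrez Gene 402828) the values were -0.08 and 0.20 in the cadmium RNAs against -0.16 and 0.04 in the controls, with 0.12, -0.16, 0.21 and 0.31 on the arrays. The splicing-related helicase genes ddx46 and ddx42 were as near to 0. For ddx46 (Entrez Gene 321948) the values were -0.14 and 0.15 in the cadmium RNAs against -0.05 and 0.03 in the controls, with -0.16, -0.10, 0.04 and 0.27 on the arrays. For ddx42 (Entrez Gene 503932) they were 0.03 and 0.00 in the cadmium RNAs against 0.09 and -0.12 in the controls, with 0.02, 0.07, 0.20 and -0.16 on the arrays. In ddx42 control replicate 2 was highest, and in ddx43 control replicate 3 was.

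The loop of arrays gave the difference between the cadmium RNAs by 2 routes that share no array. Arrays 2 and 3 link cadmium replicate 2 to cadmium replicate 1 through control replicate 3, and arrays 1 and 4 link them through control replicate 2. The median over the 45 genes was 1.35 log2 units by the first route and 1.06 by the second, and over the zona pellucida genes it was 2.58 and 2.16. By both routes 24 of the 45 genes reached at least 1 log2 unit, which 2.57% of all genes did. For zp3 the routes gave 3.15 and 2.84, and for org 2.96 and 2.28. The routes lay apart by more in gdf9 (1.48 and 0.56) and in bmp15 (0.53 and 1.36). Their dye effects of -0.23 and 0.21, the largest in size among the 45 genes, are the same measurement, since the dye effect is solved from the gap between the routes. The median size of the dye effect was 0.07 over the 45 genes and 0.05 over all genes.

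**Figure D3:**
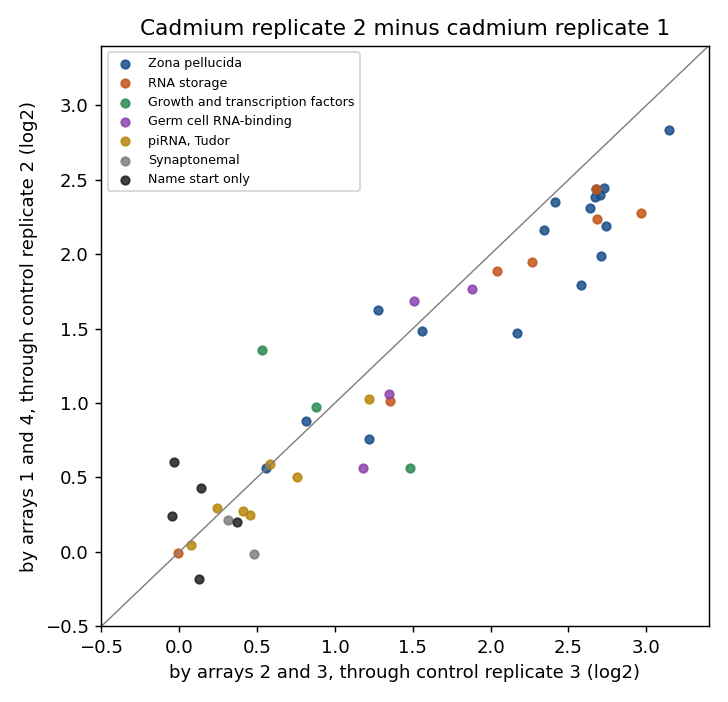
Cadmium replicate 2 minus cadmium replicate 1 (log2) for the 45 genes, by arrays 2 and 3 on the horizontal axis and by arrays 1 and 4 on the vertical axis, with 1 point per gene coloured by role and a line of equality. Points of the coat and storage genes reach 3.15 and 2.84, and 24 genes lie at or above 1 on both axes.

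The controls differed from each other as well, by less. Control replicate 3 lay above control replicate 2 in 35 of the 45 genes, where 49.4% of all genes did, with a median difference of 0.14 log2 units over the 45 genes and 0.31 over the zona pellucida genes. The order from high to low of cadmium replicate 2, control replicate 3, control replicate 2 and cadmium replicate 1 was found in 29 of the 45 genes and in 15 of the 17 zona pellucida genes, compared with 9.70% of all genes. Each control RNA is 1 sample, so this order has no replicate of its own.

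No gene of the set differed between the cadmium and control groups beyond the spread between RNAs. In limma 0 of the 45 genes had an adjusted p under 0.05, as was the case for 0.00% of all genes, and 0 had an unadjusted p under 0.05, which 2.02% of all genes had. With the 4 arrays as units, with or without a dye term, the count was also 0. The smallest unadjusted p was 0.252 (piwil1, limma), and the adjusted p was 0.9998 for each of the 45 genes. The log2 difference of cadmium minus control was above 0 in 42 of the 45 genes, where 56.9% of all genes were, with a median of 0.39 over the 45 genes and 0.02 over all genes. For zp3 the difference was 0.89 ± 1.09 (SE, 2 RNAs per group), for zp2.5 0.78 ± 0.94, for org 0.73 ± 0.95 and for dazl 0.68 ± 0.66, so the standard errors were about as large as the differences. After quantile normalization between arrays the median over the 45 genes was 0.15, and the differences were 0.48 for zp3, 0.35 for zp2.5, 0.30 for org and 0.39 for dazl. On all 4 arrays 0 of the 45 genes were higher in cadmium, compared with 7.99% of all genes, and 1 (tdrd9) was lower on all 4, compared with 6.90% of all genes.

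The sign of the group difference depended on cadmium replicate 2. Without that RNA 2 of the 45 genes were above 0 and 43 below, with a median of -0.24 and values between -0.76 and 0.04. Over all genes the median without that RNA was -0.007. Without cadmium replicate 1 the median was 0.90 with 42 genes above 0, and 28 genes were called higher in limma, with a lowest adjusted p of 0.00856, where 6.88% of all genes were called higher. In that fit cadmium replicate 2 alone stands for the treatment and is assumed to vary like the controls. Over the 45 genes cadmium replicate 2 minus cadmium replicate 1 had a median of 1.19 log2 units, and control replicate 3 minus control replicate 2 had 0.14. The spread between the cadmium RNAs does not enter that fit, so a call from it gives no result for the treatment. The RNA-level values were solved from all 4 arrays before an RNA was left out. The arrays of cadmium replicate 1 therefore still enter the values of the controls. Leaving out control replicate 2 or control replicate 3 gave medians of 0.31 and 0.40, against 0.02 and 0.02 over all genes.

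**Figure D4:**
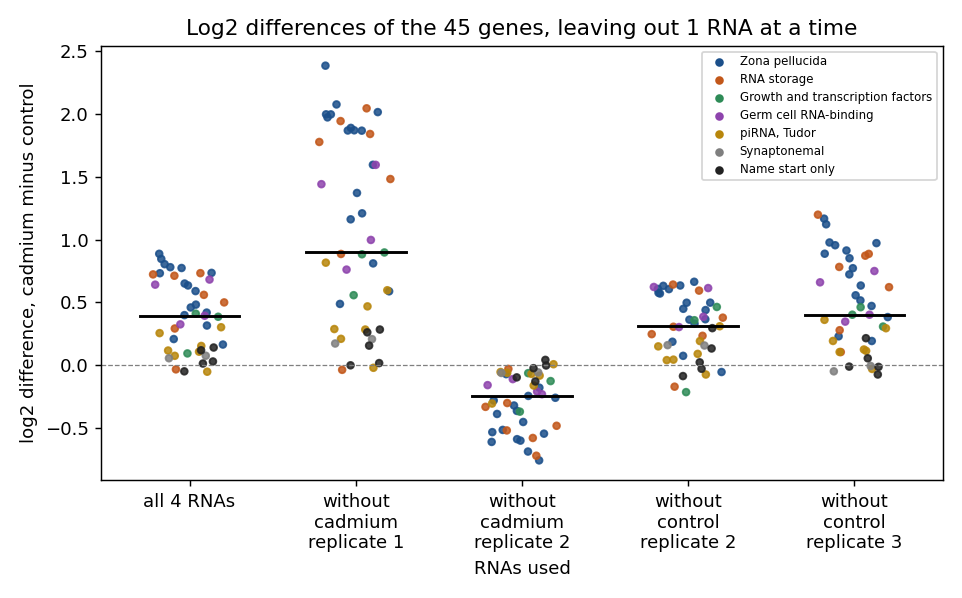
Log2 differences of cadmium minus control for the 45 genes with all 4 RNAs and without each RNA in turn, with 1 point per gene coloured by role and a bar for the median. The median is 0.39 with all RNAs, 0.90 without cadmium replicate 1, -0.24 without cadmium replicate 2, and 0.31 and 0.40 without control replicates 2 and 3.

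Each probe was highest in cadmium replicate 2 in 10 of 10 coat genes with several probes, and in 3 of 5 such Tudor genes. Of the 81 probes 72 were highest in cadmium replicate 2, where 31.4% of all probes were. Of 26 genes with more than 1 probe, 21 had cadmium replicate 2 highest on each probe, and the exceptions were tdrd1, tdrd7a, piwil2, sycp1 and ddx42. The same share over all genes with several probes was not computed. Some of these counts rest on small leads over the next RNA. On 1 probe each of zp3f.2, tdrd5 and tdrd3 the lead was 0.010, 0.0017 and 0.011 log2 units. The probes of zp3 gave 2.84 and 3.15 log2 units for cadmium replicate 2 minus cadmium replicate 1, and those of zp3a.1 gave 2.35 and 2.41. In contrast, the probes of tdrd1 gave -0.01 and 2.25, and the probes of tdrd7a ran from -0.07 to 1.26. The probes of cpeb1b ran from 0.44 to 2.50, those of dazl from 0.90 to 2.36 and those of zp3f.2 from 0.01 to 1.102. For these genes the mean over probes lies between values that differ, and which probe reports the transcript was not tested.

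**Figure D5:**
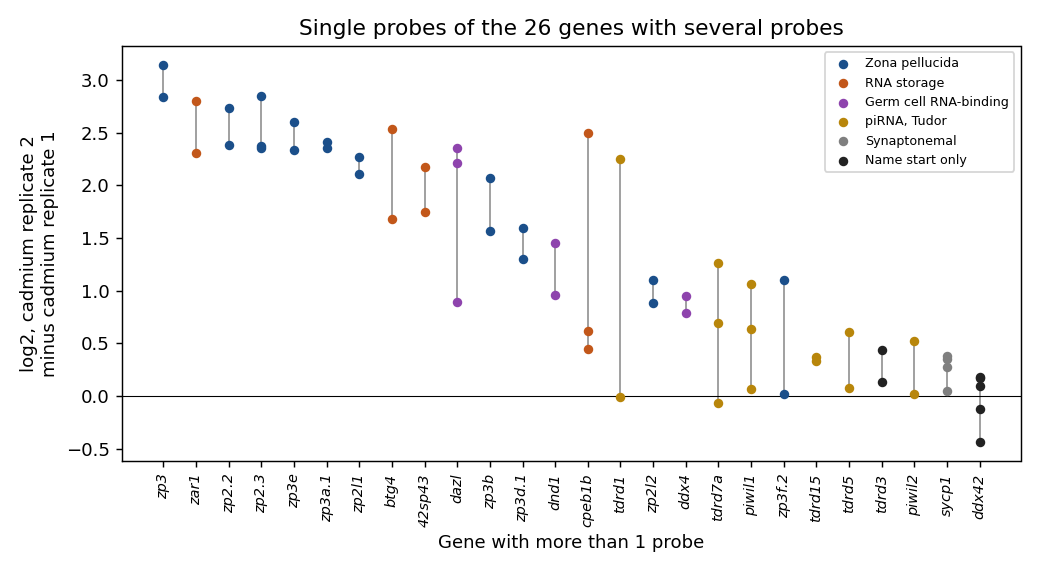
Cadmium replicate 2 minus cadmium replicate 1 (log2) for single probes of the 26 genes with several probes, with 1 point per probe coloured by role, a line joining the probes of a gene and genes sorted by the mean of their probes. The 2 probes of zp3 lie at 2.84 and 3.15, and those of tdrd1 at -0.01 and 2.25.

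Further genes of oocytes and maternal RNA were taken from a list that does not overlap the 45 genes. The list includes cell cycle genes such as ccnb1, plk1 and aurka, which are not particular to oocytes. Of its 37 measured genes 29 were highest in cadmium replicate 2, where 38.7% of all genes were. Lowest in cadmium replicate 1 were 23 of the 37, compared with 25.8% of all genes. Their medians were -0.39 and 0.71 in cadmium replicates 1 and 2, against -0.25 and -0.08 in control replicates 2 and 3. The widest ranges belonged to h1m, the linker histone of germ cells and early embryos (-0.87 and 1.47 in the cadmium RNAs against -0.65 and 0.05 in the controls), and to the cyclin gene ccnb2 (-0.78 and 1.51 against -0.60 and -0.13). The carbonic anhydrase gene ca15b had -0.60 and 1.61 in the cadmium RNAs against -0.67 and -0.33 in the controls. In the list of further piRNA and meiosis genes 10 of 16 were highest in cadmium replicate 2, where 38.7% of all genes were. The medians of this list were -0.09 and 0.11 in the cadmium RNAs against -0.06 and 0.01 in the controls. The piRNA factor genes gtsf1 (-0.81 and 1.49 in the cadmium RNAs against -0.54 and -0.15 in the controls), asz1 (-0.74 and 1.39 against -0.40 and -0.25) and mov10l1 (-0.64 and 0.99 against -0.37 and 0.02) led it. In limma 0 genes of both lists had an adjusted p under 0.05, as was the case for 0.00% of all genes. An unadjusted p under 0.05 was also found for 0 of them, where 2.02% of all genes had one.

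Markers of somatic cells of the ovary had medians near 0 in each RNA. Of 16 measured genes of follicle cells 7 were highest in cadmium replicate 2, where 38.7% of all genes were. Another 5 were highest in cadmium replicate 1, where 21.6% of all genes were. Lowest in cadmium replicate 1 were 7 (25.8% of all genes), and lowest in cadmium replicate 2 were 3 (29.4%). The medians of this list were -0.02 and 0.03 in the cadmium RNAs against -0.00 and -0.03 in the controls. Its steroid enzyme genes cyp17a1 (-0.45 and 0.80 in the cadmium RNAs against -0.23 and -0.12 in the controls) and cyp11a1.1 (-0.36 and 0.65 against -0.32 and 0.02) had the order seen in 29 of the 45 genes, ddx46 among them. The signalling gene rspo1 had -0.23 and 0.30 in the cadmium RNAs against 0.05 and -0.13 in the controls. The aromatase gene cyp19a1a (0.06 and -0.02 in the cadmium RNAs against -0.01 and -0.03 in the controls), chosen after its values were seen, did not have that order. Its range over the RNAs was 0.09, against a median of 0.25 over all genes. The gene amh, next in range after rspo1, was highest in cadmium replicate 1 and lowest in cadmium replicate 2. It had 0.20 and -0.17 in the cadmium RNAs against 0.00 and -0.03 in the controls. Ratios give no level, so whether follicle cell genes near 0 were detected was not tested. Of 18 testis markers 9 were highest in cadmium replicate 2, where 38.7% of all genes were. Their medians were -0.00 and 0.03 in the cadmium RNAs against -0.02 and 0.01 in the controls.

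Liver and other tissue markers had other patterns. The 17 liver genes had medians of 0.07 and -0.01 in the cadmium RNAs against -0.07 and 0.02 in the controls. Of them 8 were highest in cadmium replicate 1, where 21.6% of all genes were, and 4 in cadmium replicate 2 (38.7%). Lowest in cadmium replicate 2 were 7, where 29.4% of all genes were, and 0 were lowest in cadmium replicate 1 (25.8%). The widest range was that of ttr (0.40 and -0.80 against 0.35 and 0.05). Next were hpxa (0.34 and 0.14 against -0.12 and -0.36) and apoa1b (0.09 and 0.26 against 0.09 and -0.43). As ratios give no level, the liver label could not be checked further. Of 12 vitellogenesis genes 9 were lowest in cadmium replicate 2, where 29.4% of all genes were, with medians of 0.07 and -0.46 in the cadmium RNAs against 0.07 and 0.11 in the controls. The estrogen receptor gene esr1 had 0.46 and -0.81 in the cadmium RNAs against 0.07 and 0.28 in the controls, the gene fam20cl 0.06 and -0.81 against 0.21 and 0.54, and the yolk precursor gene vtg3 -0.64 and 0.76 against -0.11 and -0.02. In the pancreas list 0 of 19 measured genes were higher in control replicate 3 than in control replicate 2, where 49.4% of all genes were. The medians of this list were 0.03 and 0.30 in the cadmium RNAs against 0.72 and -0.86 in the controls. The medians were -0.12 and 0.03 against 0.05 and -0.03 for 8 intestine genes, 0.11 and -0.12 against 0.09 and -0.03 for 8 red cell genes and -0.02 and -0.02 against 0.05 and -0.01 for 12 muscle genes. Of the 8 intestine genes 4 were highest in cadmium replicate 2 (38.7% of all genes), 1 in control replicate 2 and 3 in control replicate 3. Lowest in cadmium replicate 1 were 4 (25.8% of all genes). The widest ranges were those of chia.1 (-1.74 and 1.67 in the cadmium RNAs against 0.08 and -0.00 in the controls), vil1 (-0.96 and 0.67 against 0.38 and -0.10) and fabp2 (-0.34 and 0.52 against 0.31 and -0.49). Each was highest in cadmium replicate 2. As in most of the oocyte genes, cadmium replicate 1 was lowest in chia.1 and vil1, whereas control replicate 3 was lowest in fabp2. In limma 1 of the 17 liver genes and 2 of the 12 vitellogenesis genes had an unadjusted p under 0.05, as 2.02% of all genes had. The pancreas, intestine, red cell and muscle lists had 0 such genes. An adjusted p under 0.05 was found for 0 genes of any of these lists. The part of any of these tissues in the values of the oocyte genes was not tested.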

How the data were processed

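Liver RNA of 2 cadmium and 2 control samples was hybridised in a loop of 4 two-colour arrays, labelled by version 5.7 of the Agilent protocol per the labels. The deposited values are log2 ratios between the dyes of an array, with 1 value for each probe. The authors used limma, per the submitters' processing notes. Its version, the background correction, the normalization and the log base were not stated in the sources used here. Base 2 was taken as limma's convention, with a largest value of 6.14. Array medians lay between -0.000451 and 0.00373, and the centring behind this is not stated. Arrays of one dye orientation correlated at -0.04 and -0.22 over probes. Signal per spot was not used here. The comparison rests on 2 RNAs per group, which limits its precision.

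Probes were named through the annotation of the platform, which gives 1 symbol to 23717 probes and leaves 19886 unnamed here. A gene was the mean over its probes. The 4 ratios of a gene were solved for 3 differences between RNAs and 1 dye effect. RNAs were compared 2 against 2 with lmFit and eBayes (limma 3.58.1 in R 4.3.3). The test was two-sided, and p-values were adjusted by Benjamini and Hochberg over all 15554 genes and called at 0.05. The fit has 2 residual degrees of freedom and a prior of 1.91. The code was run on simulated arrays without measurement noise, from which the solve must return the simulated RNA-level values.

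The genes, the other gene lists and the tests were chosen with earlier results of these data known. Of each role up to 4 genes with the widest range over the RNAs are given in full, and of each other list up to 3 are named by range. A few others, such as zpcx, amh and cyp19a1a, were named after their values were seen. The 10 genes most like the zona pellucida genes were taken by Euclidean distance, after leaving out symbols that look like clone or locus names. Alternatives were arrays as units, scaling, quantile normalization, the median over probes, a filter on variance and leaving out each RNA.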

Additional observations from a re-analysis of the deposited data

How the results depend on the processing

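With arrays as units and no dye term 2 of all genes and 3 of all probes were called in limma, against 0 of each with RNAs as units, and 0 of the 45 genes were called. Leaving out 1 RNA at a time gave 0 to 1456 called genes, 0 to 2523 called probes and 0 to 28 called among the 45 genes, with the upper ends all without cadmium replicate 1. It gave 2 to 42 of the 45 genes higher in cadmium and medians of -0.24 to 0.90, with the lower ends without cadmium replicate 2. Each of these fits has a group of 1 RNA, so their calls give no result for the treatment. Quantile normalization put 39 of the 45 genes above 0, with a median difference of 0.15, against 0.39 as deposited, and reversed figla (-0.049) and ddx46 (-0.010). Cadmium replicate 2 was highest in 41 of the 45 genes after scaling, quantile normalization and the median over probes. It was highest in 41 of the 44 genes that passed the filter on variance. Among the 40 genes left without those matched by the start of their names it was highest in 38. Without 1 of the other RNAs the count was 41 to 43, but it could not fall, since the solved RNA-level values were kept. Leaving out genes or RNAs for this count was chosen after seeing the data. Solving without a dye effect moved RNA-level values by 0, because each RNA was on both dyes, so the count of 41 could not change.

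Without 1 RNA at a time the log2 differences ran from -0.61 to 2.38 in zp3, -0.51 to 2.07 in zp2.5, -0.54 to 2.01 in zp2.2, -0.69 to 1.87 in zp2.1, -0.58 to 2.04 in org, -0.72 to 1.84 in zar1, -0.52 to 1.94 in zar1l, -0.33 to 1.78 in btg4, -0.13 to 0.90 in gdf9, -0.063 to 0.88 in bmp15, -0.37 to 0.56 in figla, -0.23 to 1.59 in dazl, -0.16 to 1.44 in nanos3, -0.21 to 1.00 in dnd1, -0.11 to 0.76 in ddx4, -0.30 to 0.82 in tdrd1, -0.16 to 0.47 in tdrd7a, -0.054 to 0.29 in tdrd5, -0.056 to 0.21 in sycp1, -0.061 to 0.17 in sycp3, -0.013 to 0.30 in ddx49, -0.023 to 0.26 in tdrd3, -0.13 to 0.16 in ddx46, -0.073 to 0.13 in ddx42 and, with no change of sign, 0.0083 to 0.60 in piwil1, whose lower end was without cadmium replicate 2. The cause was not tested. No paired analysis was possible because the groups share replicate number 2 alone.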

Other observations

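Genes outside the set were ranked by Euclidean distance between their 4 array values and the zona pellucida medians, and the closest 10 were kept. Symbols that look like clone or locus names were left out first, and with them all symbols that begin with fb or fd. In order of distance they were map1lc3c (0.151), larp6a, ccnb2, marcksb, incenp, ccnb1, gtsf1, asz1, avd and lipg (0.287). They include the B-type cyclin genes ccnb1 and ccnb2, the chromosomal passenger gene incenp and the piRNA factor genes gtsf1 and asz1. The autophagy gene map1lc3c had -0.80 and 1.49 in cadmium replicates 1 and 2, against -0.48 and -0.21 in control replicates 2 and 3. The avidin gene avd had -0.85 and 1.501 in the cadmium RNAs against -0.54 and -0.10 in the controls. The RNA-binding gene larp6a had -0.83 and 1.42 in the cadmium RNAs against -0.39 and -0.20 in the controls.

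Of the 19886 probes without a gene symbol, 76 (0.382%) had cadmium replicate 2 at least 1 log2 unit above the next RNA. Among all 15554 named genes 250 did, and 20 of these belong to the 45 genes.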
